A study of Mus musculus with 28 samples.

Results

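Splenic regulatory T (Treg) cells of mice that lack an enhancer of Foxp3 were compared between the 2 populations that the sample titles call aTreg and rTreg. The 8 libraries were chosen by their titles, 4 of KO aTreg and 4 of KO rTreg, out of 28 libraries in the series. Every mouse carried a green fluorescent protein reporter in the Foxp3 locus. The KO mice carried the allele labelled Foxp3-deltaCNS3-gfp, in which conserved non-coding sequence 3 (CNS3) is missing, and the WT mice carried the intact Foxp3-gfp allele. The deletion is in the germline allele, so both KO populations have it and neither serves as an intact control for the other. The same contrast in WT mice, 3 aTreg and 3 rTreg libraries, was used to ask whether the KO contrast differed from it. Mice were male littermates aged 6 to 8 weeks, and no other treatment is given in the labels. The titles do not expand the letters a and r, and the labels name no surface markers for the sort, so a gene whose protein served as a sorting marker cannot be told from one that did not. Nothing in the labels says that each library came from its own animal, so p-values measure the spread between these libraries. CNS3 lies outside the exons of Foxp3, so Foxp3 counts do not check the deletion.

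Treg cells are CD4 T cells that restrain immune responses, and the transcription factor Foxp3 defines them. CNS3 is an enhancer known to raise the chance that Foxp3 is switched on while Treg cells form, whereas Treg cells that already express Foxp3 keep it largely without CNS3. In the spleen, Treg cells that have not recently met antigen recirculate through lymphoid tissue by means of homing receptors such as Ccr7, and they express quiescence factors such as Tcf7, Lef1, Bach2 and Satb1. After stimulation through the T cell receptor and co-stimulation, Treg cells can lose these receptors, gain Icos, Klrg1, Il10 and receptors for inflamed tissue, and divide.

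Genes of mitosis, of DNA replication and of the interferon response are each known for short elements shared by their promoters. Promoters of 5 named members of these groups are shown so that these elements can be seen beside the values of the genes. Sequences run from 250 bases before to 50 bases after the RefSeq transcript start on the gene's own strand (RefSeq, GRCm38.p6). Capitals mark the motifs of the gene's own group, searched on both strands, and matches to the motifs of other groups stay in lower case. The motifs were the CHR element of mitotic genes (TTTGAA or TTCGAA), the CCAAT box (CCAAT), the E2F site of replication genes (TTTCCCGC, TTTGGCGC, TTTGGCGG or TTTCGCGC) and the interferon-stimulated response element (a pair of TTTC set apart by any 2 bases). The CHR element and the CCAAT box are in capitals in the mitosis genes, the E2F site in Mcm6 and the response element in Gbp2. Prc1 lies on chr7:80294201-80294500 (plus strand), Mki67 on chr7:135716330-135716629 (minus strand) and Cenpa on chr5:30666636-30666935 (plus strand), and all 3 encode proteins of mitosis or proliferation. Mcm6, a subunit of the replicative helicase, has its promoter on chr1:128359656-128359955 (minus strand), and Gbp2, an interferon-induced GTPase, on chr3:142620413-142620712 (plus strand).
Prc1: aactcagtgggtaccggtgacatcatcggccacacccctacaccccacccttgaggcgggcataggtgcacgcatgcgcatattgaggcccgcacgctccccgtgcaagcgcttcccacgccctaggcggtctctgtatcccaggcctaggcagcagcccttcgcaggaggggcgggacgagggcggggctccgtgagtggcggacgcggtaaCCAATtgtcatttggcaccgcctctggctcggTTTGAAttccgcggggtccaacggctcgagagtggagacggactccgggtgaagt
Mki67: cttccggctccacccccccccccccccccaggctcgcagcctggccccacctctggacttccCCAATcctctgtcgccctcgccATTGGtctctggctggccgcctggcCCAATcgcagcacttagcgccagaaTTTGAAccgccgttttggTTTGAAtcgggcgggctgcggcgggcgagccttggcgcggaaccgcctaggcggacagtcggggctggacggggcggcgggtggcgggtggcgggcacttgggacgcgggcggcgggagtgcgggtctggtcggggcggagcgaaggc
Cenpa: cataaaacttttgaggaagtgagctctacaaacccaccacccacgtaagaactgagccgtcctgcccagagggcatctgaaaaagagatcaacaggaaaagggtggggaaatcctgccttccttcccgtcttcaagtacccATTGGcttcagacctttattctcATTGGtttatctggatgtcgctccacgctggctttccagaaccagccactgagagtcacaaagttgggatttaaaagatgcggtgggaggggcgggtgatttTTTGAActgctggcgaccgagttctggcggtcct
Mcm6: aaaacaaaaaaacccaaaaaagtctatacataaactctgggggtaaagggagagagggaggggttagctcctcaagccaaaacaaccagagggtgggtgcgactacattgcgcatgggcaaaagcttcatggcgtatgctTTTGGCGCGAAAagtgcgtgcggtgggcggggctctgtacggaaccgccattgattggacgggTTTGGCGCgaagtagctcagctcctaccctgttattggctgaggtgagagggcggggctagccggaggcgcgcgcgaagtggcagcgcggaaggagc
Gbp2: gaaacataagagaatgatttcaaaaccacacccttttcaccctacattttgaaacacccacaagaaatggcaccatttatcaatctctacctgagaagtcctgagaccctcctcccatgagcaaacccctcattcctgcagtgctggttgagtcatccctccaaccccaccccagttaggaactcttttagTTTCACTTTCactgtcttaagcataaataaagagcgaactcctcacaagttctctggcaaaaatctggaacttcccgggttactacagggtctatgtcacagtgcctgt
In Prc1 a CCAAT box begins at -37 and a CHR element at -5, counted in bases from the transcript start. In Mki67, CCAAT boxes begin at -188, -166 and -141 and CHR elements at -116 and -98. Cenpa has CCAAT boxes at -109 and -86 and a CHR element at 17, inside the transcript. Mcm6 has E2F sites at -110, -106 and -47, of which the first and second overlap. Gbp2 has 1 response element, at -59. The other named replication genes, Rrm2, Tyms and Rrm1, had no E2F site in the window searched and are not shown. The interferon genes Oasl2 and Ifit2 had no response element in theirs and are not shown either. No promoter was available for Usp18 or for the mitosis gene Ccna2.

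The KO populations differed across much of the transcriptome. Of 13338 genes tested with edgeR's quasi-likelihood test, 5555 differed between KO aTreg and KO rTreg cells at a Benjamini-Hochberg adjusted p under 0.05, which is 41.6% of genes tested. Levels are given in CPM, counts scaled to library size, and the KO splenic libraries held 22037995 to 32230045 counts in genes. Of the called genes, 2900 were higher in KO aTreg cells (21.7%) and 2655 lower (19.9%). Counts of called list members below are to be read beside these shares of all genes tested. Many calls were small: 3017 lay under 1.5-fold and the median size of a called log2 fold change was 0.53. Beyond a log2 fold change of 1 in size stood 1162 genes higher in KO aTreg cells (8.71%) and 418 lower (3.13%), and beyond 3 stood 255 higher and 43 lower. The libraries of the populations did not overlap for 5734 genes (43.0%). The first principal component over the 14 splenic libraries carried 72.0% of the variance and set all aTreg libraries of both genotypes (26.4 to 34.4 in KO, 30.4 to 36.0 in WT) apart from all rTreg libraries (-32.5 to -25.4 in KO, -35.6 to -34.0 in WT).

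**Figure D1:**
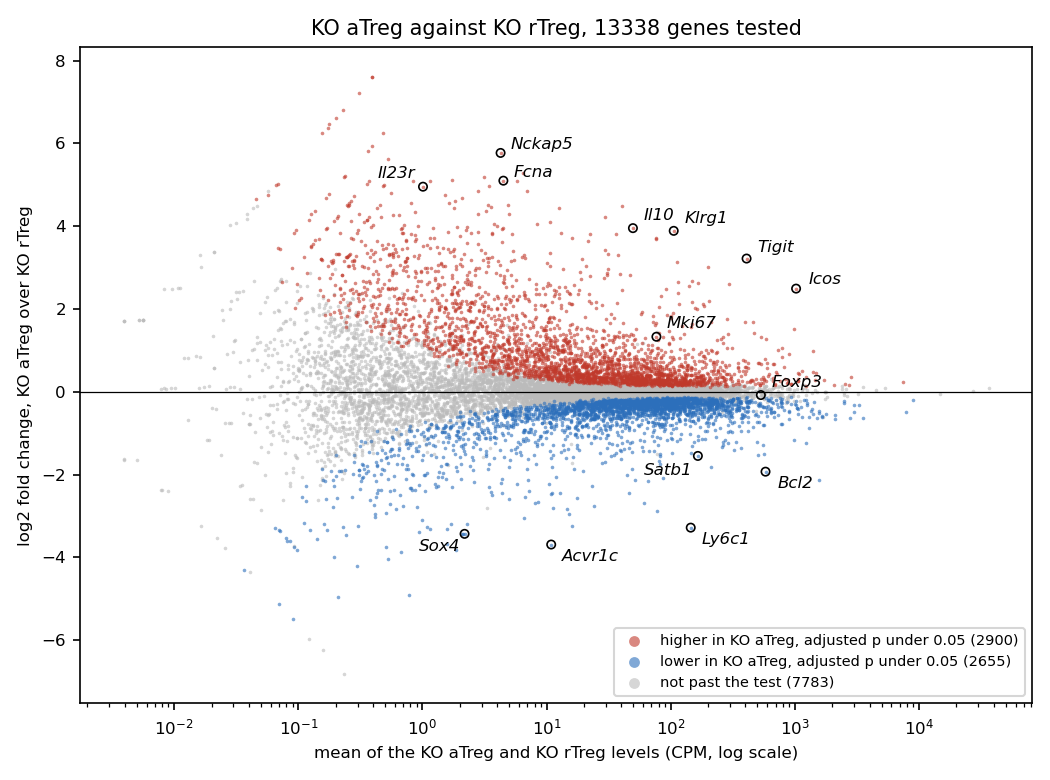
Each point is 1 of 13338 genes, with its mean level in CPM on a log axis and its log2 fold change of KO aTreg over KO rTreg on the other, and coloured points pass the edgeR test. The 2900 higher and 2655 lower genes spread over all levels, and the rises reach further (1162 over a log2 fold change of 1) than the falls (418).

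Both populations carried the T cell genes and the Treg genes of their labels. The 8 Treg markers summed to 7311 ± 288 CPM in KO aTreg and 7212 ± 234 CPM in KO rTreg cells (SD, n = 4 each, two-sided exact permutation p = 0.629). Of these 8 markers, 3 were higher in KO aTreg cells, 2 were lower and 3 did not pass, so the similar sums hide opposite changes. The 9 CD4 T cell markers summed to 10093 ± 248 CPM in KO aTreg and 9175 ± 264 CPM in KO rTreg cells, without overlap (exact permutation p = 0.0286). Transcripts of other spleen cells were also counted and most were higher in KO aTreg cells. The 15 B cell markers summed to 961 ± 61.5 CPM in KO aTreg and 473 ± 37.6 CPM in KO rTreg cells. Most of that sum was Cd74, the invariant chain of MHC class II, which other antigen-presenting cells express too (766 CPM in KO aTreg, 306 CPM in KO rTreg). The 17 myeloid markers counted summed to 851 ± 32.7 CPM in KO aTreg and 585 ± 29.0 CPM in KO rTreg cells. Ctss was the largest part of the myeloid sum (471 CPM in KO aTreg, 433 CPM in KO rTreg). The dendritic cell markers summed to 513 ± 41.8 CPM in KO aTreg and 298 ± 27.0 CPM in KO rTreg cells. Ccr9, also a member of the lymphoid homing list, was the largest part of the dendritic cell sum (242 CPM in KO aTreg, 138 CPM in KO rTreg). For the B cell, myeloid and dendritic cell sums the libraries did not overlap. The exact permutation p of each was 0.0286, the smallest that 4 against 4 unpaired libraries allow (0.0429 after Benjamini-Hochberg adjustment over 12 measures). The permutations did not keep libraries of the same replicate number paired. Keeping the pairs would allow fewer arrangements and hence only larger p-values, and that test was not run. Of the 15 B cell markers, 4 were higher in KO aTreg cells, 1 was lower and 10 did not pass. The defining B cell gene Cd79a was low and overlapped between the populations, at 10.97 CPM in KO aTreg and 9.92 CPM in KO rTreg cells. Other B cell genes had higher means in KO aTreg cells. Ms4a1 averaged 25.6 CPM in KO aTreg and 12.3 CPM in KO rTreg cells. Cd79b averaged 62.96 CPM in KO aTreg and 38.6 CPM in KO rTreg cells, and Cd22 14.2 CPM in KO aTreg and 5.76 CPM in KO rTreg cells. The myeloid receptor Csf1r averaged 19.2 CPM in KO aTreg and 1.90 CPM in KO rTreg cells, and Lyz2, the macrophage lysozyme, 37.4 CPM in KO aTreg and 8.48 CPM in KO rTreg cells. The CD8 T cell marker sum was also higher (318 ± 47.4 CPM in KO aTreg, 88.7 ± 11.2 CPM in KO rTreg), but Ccl5 was its largest part (286 CPM in KO aTreg, 46.2 CPM in KO rTreg). Of the 8 CD8 T cell markers tested, 2 were higher and 2 lower, with Cd8b1 at 23.0 CPM in KO aTreg and 33.7 CPM in KO rTreg cells. The NK and innate lymphoid sum was higher (36.6 ± 2.60 CPM in KO aTreg, 9.66 ± 2.31 CPM in KO rTreg), and the stromal sum was lower (179 ± 7.46 CPM in KO aTreg, 321 ± 23.1 CPM in KO rTreg). Pecam1, which leukocytes also express, made up most of the stromal sum (148 CPM in KO aTreg, 316 CPM in KO rTreg), and of the 7 stromal markers tested 3 were higher and 1 lower, with Epcam at 28.7 CPM in KO aTreg and 4.77 CPM in KO rTreg cells. The part of these transcripts in the results below was not tested for single genes unless a value is given. The erythroid and platelet sum overlapped between the populations (28.6 ± 17.2 CPM in KO aTreg, 13.4 ± 3.63 CPM in KO rTreg, exact permutation p = 0.0857). Reads in no gene made up 46.0 ± 0.740% of counted reads in KO aTreg and 49.2 ± 0.449% in KO rTreg libraries, again without overlap. When the myeloid sum entered the fit as a covariate, 2841 genes were called (1523 higher, 1318 lower), and with the B cell sum 3516 (1862 higher, 1654 lower). With the percent of reads outside genes the count was 3878 (2057 higher, 1821 lower). Because these measures separate the populations, the covariate and the population cannot be told apart by these fits.

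Foxp3 (chrX:7573644-7595245, plus strand, GRCm38) did not pass the test between the KO populations. Foxp3 read 492, 520, 550 and 513 CPM in the KO aTreg libraries, against 508, 543, 602 and 536 CPM in the KO rTreg libraries. The groups overlap, and the log2 fold change was -0.08 (SE 0.0809, adjusted p = 0.475). Foxp3 was lower in KO aTreg cells in all 4 pairs of libraries with the same replicate number, and with that number as a block its adjusted p was 0.469 over 28 libraries and 0.0854 over the 8 KO splenic libraries. With the B cell marker sum as a covariate it was -0.39 and passed the test (adjusted p = 0.00845).

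Among 23 tested genes of the Treg identity list, 10 were higher in KO aTreg cells, 5 were lower and 8 did not pass, with a median log2 fold change of 0.16 against 0.01 over all genes tested. Cd83, a surface protein of activated lymphocytes, read 649, 583, 598 and 594 CPM in KO aTreg libraries, against 183, 206, 171 and 193 CPM in KO rTreg libraries. Its log2 fold change was 1.69 (SE 0.110, adjusted p = 9.52e-13). The TNF receptor family member Tnfrsf4 (OX40) averaged 1172 ± 71.3 CPM in KO aTreg and 616 ± 56.2 CPM in KO rTreg cells (SD, n = 4 each), a log2 fold change of 0.93. The groups were well apart for both genes, as they were for the inhibitory receptor Ctla4 (1066 ± 25.6 CPM in KO aTreg, 509 ± 31.3 CPM in KO rTreg, log2 fold change 1.07). Ctla4 and Il2ra were chosen after their values were seen.

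The lower members were Ecm1, Gpr83, Il2rb, Lrrc32 and Ikzf4. Ecm1, which encodes an extracellular matrix protein, read 224, 257, 287 and 284 CPM in KO aTreg libraries, against 693, 801, 758 and 752 CPM in KO rTreg libraries (log2 fold change -1.51, adjusted p = 2.00e-14). The orphan receptor Gpr83, long used as a Treg marker, averaged 323 ± 41.4 CPM in KO aTreg and 793 ± 60.2 CPM in KO rTreg cells (log2 fold change -1.29). For both, every KO aTreg library lay below every KO rTreg library. Il2ra, the alpha chain of the interleukin-2 receptor, read 1133, 1323, 1414 and 1528 CPM in KO aTreg libraries, against 1921, 2062, 2024 and 2187 CPM in KO rTreg libraries. These groups do not overlap, yet the log2 fold change of -0.60 did not pass in the fit of all 28 libraries (SE 0.343, adjusted p = 0.164), which pools the spread with thymic cells. In the fit of the 14 splenic libraries the same change passed (adjusted p = 1.58e-06), as it did in the 8 KO splenic libraries alone (adjusted p = 9.11e-06).

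Of 16 tested receptors and related genes of lymphoid homing, 8 were lower in KO aTreg cells, 3 were higher and 5 did not pass (median log2 fold change -0.35). Ccr7, the chemokine receptor of lymph nodes and the splenic T cell zone, read 156, 154, 196 and 205 CPM in KO aTreg libraries, against 502, 495, 461 and 439 CPM in KO rTreg libraries (log2 fold change -1.42, adjusted p = 8.85e-12). S1pr1, the egress receptor for sphingosine 1-phosphate, read 261, 297, 316 and 307 CPM in KO aTreg libraries, against 843, 810, 893 and 786 CPM in KO rTreg libraries (log2 fold change -1.50, adjusted p = 1.34e-15). Neither receptor overlapped between the populations, which for S1pr1 was a condition of its naming by smallest p.

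Igfbp4, a secreted binding protein of insulin-like growth factors, fell further, to 16.6 ± 5.196 CPM in KO aTreg, against 106 ± 17.4 CPM in KO rTreg cells (log2 fold change -2.68). Actn1, an actin crosslinker, averaged 69.2 ± 2.31 CPM in KO aTreg and 157 ± 5.93 CPM in KO rTreg cells. Higher members were Cxcr5, the receptor that guides cells to B cell follicles, and Gpr183, an oxysterol receptor that positions cells at the follicle edge. Cxcr5 read 208, 177, 140 and 155 CPM in KO aTreg libraries, against 80.4, 77.4, 63.8 and 55.9 CPM in KO rTreg libraries (log2 fold change 1.29, adjusted p = 5.88e-06). Gpr183 averaged 226 ± 15.996 CPM in KO aTreg and 149 ± 6.204 CPM in KO rTreg cells (log2 fold change 0.60). No library of one population reached into the other for either gene.

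**Figure D2:**
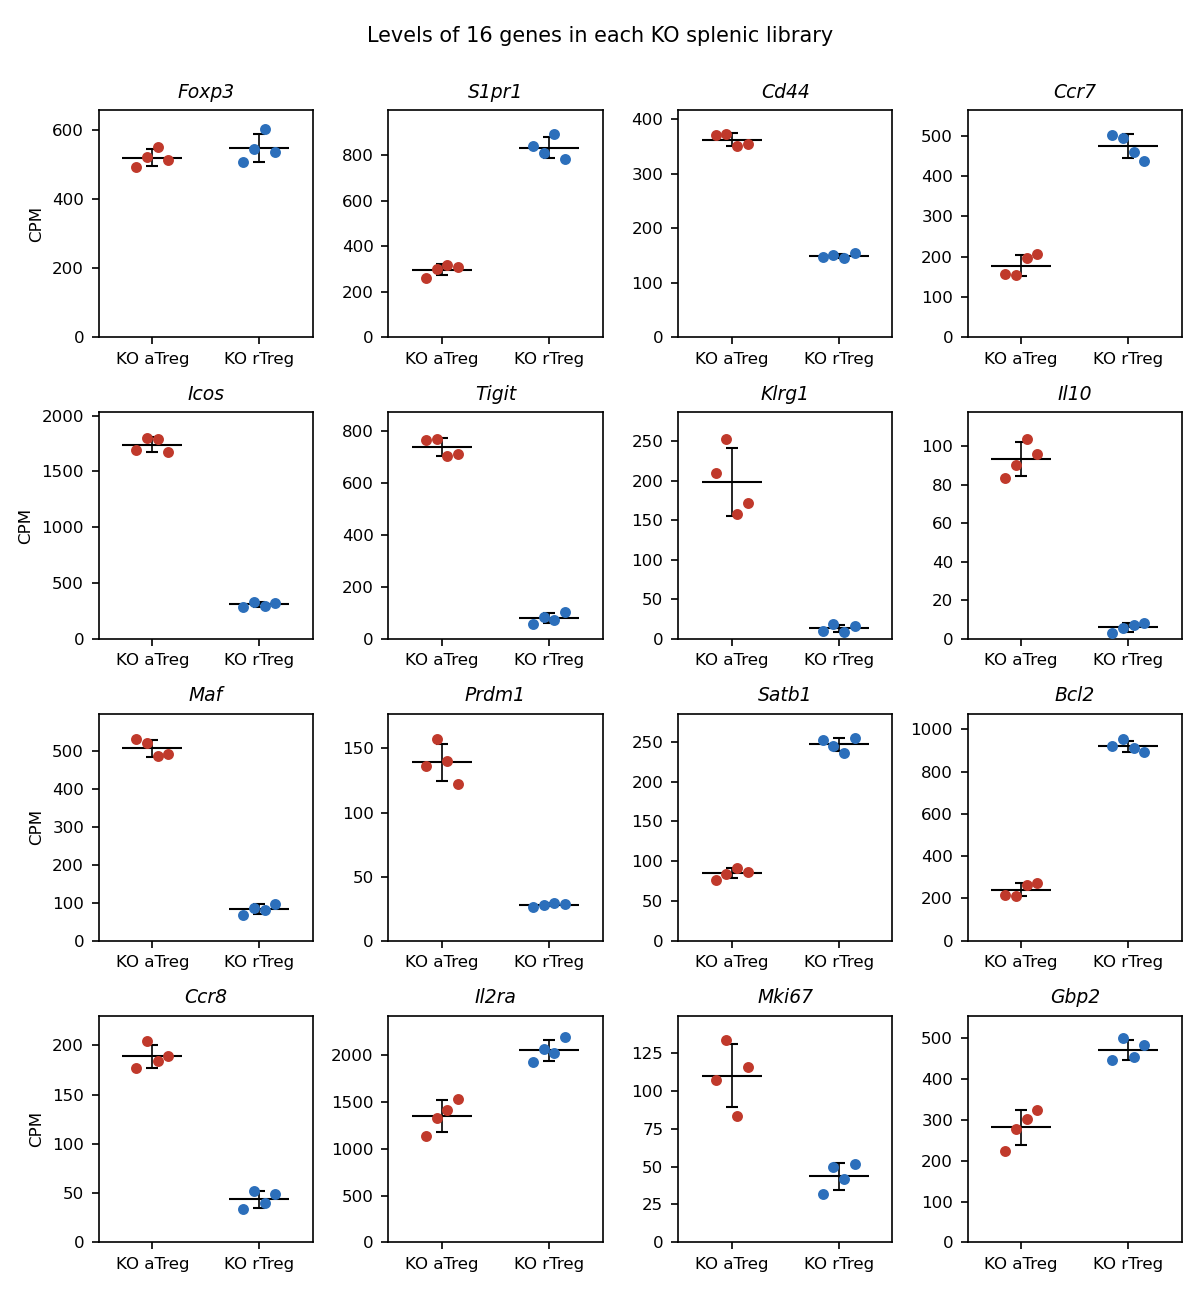
Level of 16 genes in each KO library, in CPM on linear axes from 0, with 1 point per library, KO aTreg left of KO rTreg, and bars for the group mean and SD (n = 4 each). Foxp3 overlaps between the populations at about 500 CPM, whereas S1pr1, Ccr7 and Bcl2 lie lower and Klrg1, Icos and Il10 higher in all 4 KO aTreg libraries.

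Suppressive and effector molecules were nearly all higher in KO aTreg cells. Of 21 tested members, 18 were higher and 1 lower, with a median log2 fold change of 2.41, and 14 of the rises exceeded a log2 fold change of 1. Klrg1, an inhibitory receptor of terminally differentiated lymphocytes, read 210, 253, 158 and 172 CPM in KO aTreg libraries, against 10.5, 18.4, 9.14 and 15.7 CPM in KO rTreg libraries. This was 14.8-fold higher (log2 fold change 3.89, SE 0.195, adjusted p = 6.72e-15). Il10, an anti-inflammatory cytokine, read 83.2, 90.1, 104 and 96.0 CPM in KO aTreg libraries, against 3.11, 5.38, 7.35 and 8.24 CPM in KO rTreg libraries (15.5-fold, adjusted p = 3.56e-13). The KO aTreg libraries lay far above every KO rTreg library for both genes.

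Il1r2, the decoy receptor for interleukin-1, averaged 141 ± 20.9 CPM in KO aTreg and 10.98 ± 4.92 CPM in KO rTreg cells (log2 fold change 3.68). Penk, the precursor of enkephalin peptides, averaged 255 ± 45.3 CPM in KO aTreg and 39.98 ± 11.6 CPM in KO rTreg cells (log2 fold change 2.67). Prf1, which encodes the pore-forming protein perforin, was the 1 lower member. It read 10.99, 12.9, 9.36 and 8.92 CPM in KO aTreg libraries, against 20.2, 20.2, 16.6 and 17.8 CPM in KO rTreg libraries (log2 fold change -0.83, adjusted p = 0.00179). Granzyme B, the protease that perforin delivers, went the other way: Gzmb, chosen after its values were seen, averaged 143 ± 45.8 CPM in KO aTreg and 10.9 ± 1.90 CPM in KO rTreg cells (log2 fold change 3.71).

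Transcription factors fell into groups of opposite direction. Of 22 tested effector factors, 20 were higher in KO aTreg cells and 1 lower (median log2 fold change 1.44). Of 22 tested quiescence factors, 17 were lower and 0 higher (median -0.53). Maf, a factor for interleukin-10 and follicular programmes, read 531, 523, 486 and 491 CPM in KO aTreg libraries, against 67.2, 87.2, 81.1 and 97.1 CPM in KO rTreg libraries (log2 fold change 2.61, SE 0.127, adjusted p = 3.67e-15). Prdm1, which encodes Blimp-1, averaged 139 ± 14.4 CPM in KO aTreg and 28.1 ± 1.37 CPM in KO rTreg cells (log2 fold change 2.31). Batf, an AP-1 family factor of effector Treg cells, averaged 186 ± 13.4 CPM in KO aTreg and 70.8 ± 5.78 CPM in KO rTreg cells, and Hif1a, the hypoxia factor, 363 ± 35.5 CPM in KO aTreg and 160 ± 12.8 CPM in KO rTreg cells. Eomes, a factor of cytotoxic cells, was the lower member, at 0.317 ± 0.148 CPM in KO aTreg and 0.806 ± 0.142 CPM in KO rTreg cells (adjusted p = 0.0272). That call rested on few reads and was lost without KO aTreg replicate 2 (log2 fold change -1.09, adjusted p = 0.104) and without KO aTreg replicate 4, KO rTreg replicate 1 or KO rTreg replicate 3 (adjusted p 0.0606, 0.0638 and 0.0528).

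Satb1, an organiser of chromatin in T cells, read 76.4, 83.6, 91.5 and 86.3 CPM in KO aTreg libraries, against 252, 244, 236 and 254 CPM in KO rTreg libraries (log2 fold change -1.55, SE 0.0714, adjusted p = 1.34e-15). Bach2, a repressor of effector genes, read 37.4, 35.3, 45.1 and 40.7 CPM in KO aTreg libraries, against 108, 102, 107 and 108 CPM in KO rTreg libraries (log2 fold change -1.42). Neither gene overlapped between the populations, which for Satb1 was a condition of its naming by smallest p. Lef1 and Tcf7, partner factors of Wnt signalling that mark naive and memory T cells, fell by 0.95 and 0.88 on the log2 scale. Lef1 averaged 284 ± 15.3 CPM in KO aTreg and 548 ± 13.2 CPM in KO rTreg cells. Tcf7 averaged 176 ± 11.03 CPM in KO aTreg and 324 ± 18.3 CPM in KO rTreg cells. The quiescence members that did not pass included Foxo3 (log2 fold change 0.14) and Slfn2 (-0.04).

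Chemokine receptors and adhesion molecules of non-lymphoid tissue had 24 higher and 2 lower members of 28 tested (median log2 fold change 1.62). Cd44, a hyaluronan receptor that marks antigen-experienced T cells, read 372, 374, 350 and 356 CPM in KO aTreg libraries, against 147, 151, 145 and 154 CPM in KO rTreg libraries (log2 fold change 1.28, SE 0.0586, adjusted p = 1.34e-15). Ccr8 (chr9:120092114-120094906, plus strand), a receptor of tissue Treg cells, read 177, 204, 185 and 189 CPM in KO aTreg libraries, against 33.8, 52.1, 39.9 and 49.0 CPM in KO rTreg libraries (log2 fold change 2.11, SE 0.0980, adjusted p = 1.34e-15). Cxcr3, the receptor for interferon-induced chemokines, averaged 240 ± 22.9 CPM in KO aTreg and 41.1 ± 8.43 CPM in KO rTreg cells (log2 fold change 2.55). The 3 genes separated the populations in every library, which for Cd44 and Ccr8 was a condition of their naming by smallest p. Itgae, the integrin CD103 that binds epithelial E-cadherin, read 399, 409, 501 and 457 CPM in KO aTreg libraries, against 116, 122, 147 and 134 CPM in KO rTreg libraries (log2 fold change 1.76). Within each population replicates 1 and 2 of Itgae were the lower pair.

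The lower members were Itgb3, an integrin beta chain of platelets and other cells, and Selplg, the ligand of P-selectin. Itgb3 averaged 26.1 ± 0.999 CPM in KO aTreg and 66.9 ± 5.41 CPM in KO rTreg cells (log2 fold change -1.36). Selplg averaged 599 ± 29.2 CPM in KO aTreg and 724 ± 12.4 CPM in KO rTreg cells, a small change (-0.27, adjusted p = 7.40e-04).

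Co-stimulatory and inhibitory receptors had 19 higher and 5 lower members of 31 tested (median log2 fold change 0.55). Icos, the inducible co-stimulator, had the smallest p of all genes tested. It read 1690, 1802, 1789 and 1676 CPM in KO aTreg libraries, against 285, 328, 297 and 325 CPM in KO rTreg libraries (5.63-fold, SE of the log2 value 0.0721, adjusted p = 4.60e-20). Tigit, an inhibitory receptor of effector Treg cells, read 766, 771, 704 and 713 CPM in KO aTreg libraries, against 56.8, 83.2, 74.2 and 103 CPM in KO rTreg libraries (9.32-fold). Both groups of libraries lay far apart for these genes, though for Icos a lack of overlap was a condition of its naming by smallest p. Tnfrsf1b, the second TNF receptor, averaged 700 ± 41.2 CPM in KO aTreg and 217 ± 12.9 CPM in KO rTreg cells, and Cd200r1, an inhibitory receptor, 148 ± 10.8 CPM in KO aTreg and 61.1 ± 5.88 CPM in KO rTreg cells. The lower members included Cd96, a nectin-family receptor (291 ± 21.1 CPM in KO aTreg, 454 ± 11.7 CPM in KO rTreg), and Tnfsf8, the CD30 ligand (51.5 ± 3.48 CPM in KO aTreg, 91.6 ± 2.29 CPM in KO rTreg).

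Early genes of T cell receptor signalling did not move as 1 block. Of 24 tested members, 11 were higher and 3 lower (median log2 fold change 0.39), and 6 were higher with the percent of reads outside genes in the fit. Tnfrsf9, the 4-1BB co-stimulatory receptor, averaged 680 ± 26.0 CPM in KO aTreg and 252 ± 23.5 CPM in KO rTreg cells (log2 fold change 1.43). Irf8 averaged 55.1 ± 4.88 CPM in KO aTreg and 21.9 ± 3.76 CPM in KO rTreg cells. Nfatc1, the calcium-regulated factor of T cell activation, averaged 294 ± 14.6 CPM in KO aTreg and 176 ± 3.90 CPM in KO rTreg cells. Irf8 is also high in B cells and dendritic cells, whose marker sums were higher in KO aTreg cells as given above, and their part in the Irf8 result was not tested. Myc, the growth regulator, went the other way: it read 130, 156, 156 and 176 CPM in KO aTreg libraries, against 360, 409, 377 and 364 CPM in KO rTreg libraries (log2 fold change -1.29, SE 0.0996, adjusted p = 3.11e-11). Tagap, a GTPase-activating protein of activated T cells, fell by 0.30 on the log2 scale. Nr4a1, an immediate reporter of receptor signalling, read 190, 194, 200 and 203 CPM in KO aTreg libraries, against 166, 164, 209 and 227 CPM in KO rTreg libraries, and these overlap (log2 fold change 0.04, adjusted p = 0.761).

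The NF-kB list was split, with 12 higher (41.4%) and 8 lower (27.6%) of 29 tested (median log2 fold change -0.01), against 21.7% and 19.9% over all genes. Tnfaip8, a TNF-induced regulator of cell death, averaged 289 ± 14.4 CPM in KO aTreg and 145 ± 6.85 CPM in KO rTreg cells, and Malt1, a protease of antigen receptor signalling, 89.1 ± 12.4 CPM in KO aTreg and 46.5 ± 2.96 CPM in KO rTreg cells. The kinase Map3k14 (NIK), which drives the alternative pathway, averaged 40.7 ± 1.94 CPM in KO aTreg and 81.0 ± 6.06 CPM in KO rTreg cells, and the ubiquitin ligase Traf6 53.1 ± 3.96 CPM in KO aTreg and 87.9 ± 3.01 CPM in KO rTreg cells. All 4 genes separated the populations without overlap.

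Cytokine receptors and their signalling genes were also split, with 13 higher (36.1%) and 10 lower (27.8%) of 36 tested (median log2 fold change -0.05). Smad3, a signal carrier of TGF-beta, averaged 68.6 ± 3.34 CPM in KO aTreg and 39.4 ± 1.66 CPM in KO rTreg cells (log2 fold change 0.80), while Tgfbr3, a TGF-beta co-receptor, averaged 5.39 ± 1.18 CPM in KO aTreg and 12.9 ± 0.512 CPM in KO rTreg cells (log2 fold change -1.25). Il12rb1, a chain of the receptors for interleukin-12 and interleukin-23, averaged 57.6 ± 5.50 CPM in KO aTreg and 25.4 ± 3.17 CPM in KO rTreg cells (log2 fold change 1.18). Stat5a, which carries the interleukin-2 signal, averaged 68.6 ± 2.96 CPM in KO aTreg and 104 ± 5.81 CPM in KO rTreg cells (log2 fold change -0.60, adjusted p = 7.25e-07).

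Cytokine and chemokine genes of helper cells had 8 higher and 0 lower of 13 tested (median log2 fold change 2.42). The higher members numbered 4 at a minimum of 8 CPM, 5 with the myeloid sum in the fit and 5 in the 8 KO splenic libraries alone. Csf1, a macrophage growth factor, averaged 46.2 ± 3.24 CPM in KO aTreg and 13.7 ± 2.09 CPM in KO rTreg cells (log2 fold change 1.76). Ccl5, a chemokine of memory T and NK cells, read 268, 350, 233 and 293 CPM in KO aTreg libraries, against 34.2, 57.8, 42.0 and 51.0 CPM in KO rTreg libraries (6.19-fold, adjusted p = 1.05e-09). Ifng, the cytokine of type 1 helper cells, read 14.8, 14.2, 18.4 and 16.8 CPM in KO aTreg libraries, against 2.17, 2.83, 3.13 and 3.21 CPM in KO rTreg libraries (5.66-fold). Replicate 2 was highest for Ccl5 in both populations, and neither gene overlapped. Ccl4 averaged 9.75 ± 3.44 CPM in KO aTreg and 0.697 ± 0.277 CPM in KO rTreg cells. CD8 T cells also make Ccl5. Their defining gene Cd8a stood at 3.75 CPM in KO aTreg and 4.24 CPM in KO rTreg cells, and Cd8b1 at 23.0 CPM in KO aTreg and 33.7 CPM in KO rTreg cells. Gzmk, of the same marker list, went the other way at a low level (0.587 CPM in KO aTreg, 0.0278 CPM in KO rTreg). The part of CD8 T cells in the Ccl5 result was not tested.

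The 10 largest rises under the rule for named genes came from genes at low levels in KO rTreg cells. Nckap5 read 9.79, 9.68, 8.52 and 5.48 CPM in KO aTreg libraries, against 0.0942, 0.398, 0.0728 and 0.0636 CPM in KO rTreg libraries (log2 fold change 5.77, SE 0.615, adjusted p = 1.50e-08). Ky, named for a muscle disorder of mice, read 14.2, 13.2, 12.0 and 10.7 CPM in KO aTreg libraries, against 0.188, 0.757, 0.218 and 0.159 CPM in KO rTreg libraries (5.28). In both genes replicate 2 was the high KO rTreg library, still more than 10-fold under every KO aTreg library. Asb2, a subunit of a ubiquitin ligase, averaged 78.3 ± 19.0 CPM in KO aTreg and 3.53 ± 1.52 CPM in KO rTreg cells (4.49). Arnt2, a transcription factor of the bHLH-PAS family, averaged 11.3 ± 3.87 CPM in KO aTreg and 0.325 ± 0.264 CPM in KO rTreg cells (5.10), and Mmp9, a matrix protease, 13.4 ± 1.84 CPM in KO aTreg and 0.451 ± 0.139 CPM in KO rTreg cells (4.86).

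Tox2, an HMG-box factor of follicular T cells, averaged 9.37 ± 2.93 CPM in KO aTreg and 0.407 ± 0.201 CPM in KO rTreg cells (log2 fold change 4.51). Sostdc1, a secreted antagonist made by follicular T cells, read 18.8, 9.74, 1.97 and 7.18 CPM in KO aTreg libraries, against 1.29, 0.279, 0.0364 and 0.254 CPM in KO rTreg libraries (4.30, adjusted p = 3.08e-04). Sostdc1 varied widely among KO aTreg libraries, with replicate 1 highest and replicate 3 lowest in both populations. A list of 10 follicular T cell genes, chosen after values were seen, summed to 2698 ± 113 CPM in KO aTreg and 809 ± 39.2 CPM in KO rTreg cells. Icos made up most of that sum in KO aTreg cells.

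Gp49a, Lilrb4 and Fcna completed the largest rises and are genes known from macrophages and other myeloid cells. Fcna, the lectin ficolin A, averaged 8.73 ± 2.72 CPM in KO aTreg and 0.248 ± 0.246 CPM in KO rTreg cells (log2 fold change 5.10). The inhibitory receptors Gp49a and Lilrb4 averaged 24.0 ± 5.96 and 56.5 ± 17.2 CPM in KO aTreg cells, against 1.11 ± 0.375 and 3.05 ± 1.22 CPM in KO rTreg cells. They are near-identical copies whose reads the counting could split, so their separate values are uncertain. A list of 12 splenic macrophage genes, among them C1qa, Csf1r and Vcam1 and chosen after values were seen, was higher for all 12 members in KO aTreg cells. It summed to 269, 254, 297 and 172 CPM in KO aTreg libraries, against 18.9, 39.2, 15.2 and 10.2 CPM in KO rTreg libraries. Replicate 4 was lowest in both populations. The part of these transcripts in the rises of Fcna, Gp49a and Lilrb4 was not tested. In bulk RNA, more cells of a type and more RNA per cell cannot be told apart.

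The 10 largest falls were led by Acvr1c and Ly6c1. Acvr1c, an activin-type receptor, read 1.47, 0.730, 1.64 and 2.46 CPM in KO aTreg libraries, against 24.1, 14.3, 22.5 and 20.04 CPM in KO rTreg libraries (log2 fold change -3.69, SE 0.289, adjusted p = 4.14e-11). Ly6c1, a Ly6 surface antigen, read 24.6, 22.2, 26.2 and 35.2 CPM in KO aTreg libraries, against 300, 242, 252 and 258 CPM in KO rTreg libraries (-3.28). These were 12.9-fold and 9.71-fold lower in KO aTreg cells. Selp, which encodes P-selectin, averaged 3.08 ± 0.700 CPM in KO aTreg and 29.1 ± 5.57 CPM in KO rTreg cells (-3.23). Myo6, an actin motor that moves toward the minus end, averaged 18.7 ± 2.78 CPM in KO aTreg and 138 ± 16.8 CPM in KO rTreg cells (-2.88), and Adcy6, an adenylyl cyclase, 1.40 ± 0.479 CPM in KO aTreg and 11.9 ± 1.07 CPM in KO rTreg cells (-3.05). The others, Ampd1, Sorcs2, Cnn3, Ccdc164 and Arhgap20, fell by 2.94, 2.84, 2.81, 2.76 and 2.69 on the log2 scale.

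Genes with the smallest p included others that no list held. Glrx, a glutaredoxin, read 347, 360, 309 and 322 CPM in KO aTreg libraries, against 71.3, 78.7, 68.4 and 76.0 CPM in KO rTreg libraries (4.55-fold, adjusted p = 7.99e-19). Cst7, which encodes the lysosomal protease inhibitor cystatin F, averaged 243 ± 22.9 CPM in KO aTreg and 53.9 ± 6.82 CPM in KO rTreg cells (4.51-fold). Nsg2, a vesicle protein known from neurons, averaged 76.3 ± 7.62 CPM in KO aTreg and 213 ± 10.1 CPM in KO rTreg cells (2.79-fold lower). The naming rules for the smallest p and for the largest rises and falls took only genes without overlap between the populations. The separation of these 3 is therefore no separate result. The same holds for Icos, Cd44, Ccr8, Bcl2, Satb1, S1pr1 and Myo6, and for all of the largest rises and falls.

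Genes of cell division were higher in KO aTreg cells. Of 36 mitosis genes tested, 34 were higher and 0 lower (median log2 fold change 0.98), and of 35 DNA replication genes 20 were higher and 0 lower (median 0.49). The mitosis genes summed to 834, 1032, 855 and 942 CPM in KO aTreg libraries, against 357, 520.2, 422 and 570.3 CPM in KO rTreg libraries, so the sums do not overlap. Mki67, the proliferation antigen, read 107, 133, 83.1 and 116 CPM in KO aTreg libraries, against 32.0, 49.7, 41.7 and 51.4 CPM in KO rTreg libraries (log2 fold change 1.33, SE 0.197, adjusted p = 3.75e-06). Prc1, a crosslinker of the mitotic spindle, read 41.2, 49.8, 46.5 and 41.3 CPM in KO aTreg libraries, against 14.03, 17.1, 15.9 and 22.4 CPM in KO rTreg libraries (1.37, adjusted p = 2.81e-08). In both genes the highest KO rTreg library was replicate 4, still below every KO aTreg library. Cenpa, the centromeric histone, averaged 47.6 ± 3.49 CPM in KO aTreg and 29.8 ± 3.14 CPM in KO rTreg cells (0.67), and the cyclin Ccna2 17.0 ± 1.27 CPM in KO aTreg and 7.15 ± 1.88 CPM in KO rTreg cells (1.25).

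Among replication genes, Rrm2, a subunit of ribonucleotide reductase, read 121, 146, 136 and 137 CPM in KO aTreg libraries, against 42.9, 61.0, 57.3 and 75.3 CPM in KO rTreg libraries (log2 fold change 1.19, adjusted p = 3.87e-06). Its partner Rrm1 averaged 146 ± 9.61 CPM in KO aTreg and 95.01 ± 5.25 CPM in KO rTreg cells (0.62), and Tyms, which makes thymidylate, 53.9 ± 4.04 CPM in KO aTreg and 29.9 ± 5.45 CPM in KO rTreg cells (0.85). Mcm6 averaged 278 ± 17.3 CPM in KO aTreg and 170 ± 14.4 CPM in KO rTreg cells (0.71), whereas its helicase partners Mcm2 (0.03), Mcm4 (0.01) and Mcm7 (-0.05) did not pass, and their libraries overlapped. With 1 covariate added, 3, 2 and 3 of 35 replication genes were higher for the percent of reads outside genes, the myeloid sum and the B cell sum. Mitosis calls fell to 15, 6 and 27 of 36 in the same fits.

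The printed elements of the mitosis and replication genes recur in those lists. Among 30 mitosis genes with a RefSeq promoter, 25 (83.3%) held a CHR element, against 21.7% of all 27025 symbols in the table, and 21 (70%) held both a CHR element and a CCAAT box, against 8.61%. Of 29 replication genes with a promoter, 13 (44.8%) held an E2F site, against 2.70% of all symbols, as Mcm6 does 3 times in the sequence above. Over the 9858 genes tested that had a promoter, 16.8% held a CHR element, 6.85% both a CHR element and a CCAAT box, and 4.85% an E2F site. For the response element of Gbp2 the check over the interferon list is void, since only 25 of its 34 genes had a promoter in the table. A symbol with several starts counted if any of them held the motif, and a match describes letters in a window and not a bound site.

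**Figure D3:**
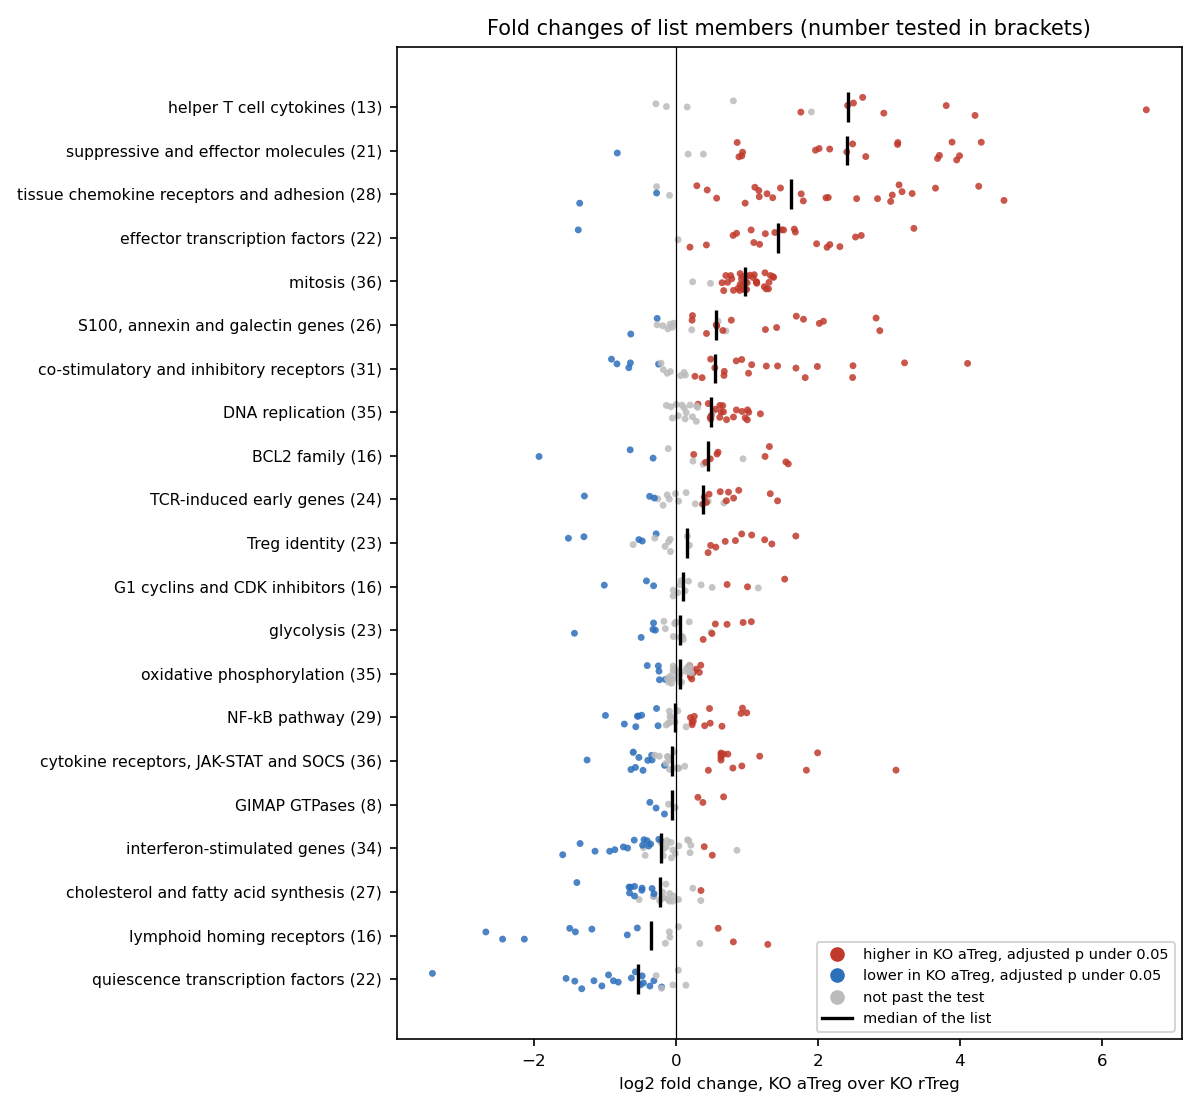
Log2 fold change of KO aTreg over KO rTreg for each tested member of the 21 gene lists, 1 row per list and 1 point per gene, with a bar at the list median and colours for genes that pass the edgeR test. Suppressive molecules (median 2.41) and helper cytokines (2.42) lie furthest right, mitosis genes sit at 0.98 and quiescence factors at -0.53, while the median of all genes is 0.01.

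Regulators of the G1 phase had 3 higher and 3 lower of 16 tested (18.8% each way), near the 21.7% higher and 19.9% lower over all genes. Cdkn2c (p18), an inhibitor of cyclin-dependent kinases, averaged 18.7 ± 1.501 CPM in KO aTreg and 6.48 ± 0.783 CPM in KO rTreg cells (log2 fold change 1.53, adjusted p = 2.41e-09). Its relative Cdkn2d (p19) moved the other way, at 80.4 ± 2.32 CPM in KO aTreg and 162 ± 10.04 CPM in KO rTreg cells (-1.01, adjusted p = 1.39e-12). Rbl2, a pocket protein of the retinoblastoma family, averaged 161 ± 19.5 CPM in KO aTreg and 97.6 ± 9.83 CPM in KO rTreg cells, and the D-type cyclin Ccnd3 46.8 ± 4.62 CPM in KO aTreg and 62.4 ± 2.97 CPM in KO rTreg cells. With the replicate number as a block, 5 members were higher over all 28 libraries and 7 over the 8 KO splenic libraries.

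Of 16 tested survival regulators of the BCL2 family, 9 were higher (56.25%) and 3 lower (18.75%). Bcl2 (chr1:106538178-106714274, minus strand), the founding inhibitor of cell death, read 217, 213, 264 and 273 CPM in KO aTreg libraries, against 919, 956, 911 and 894 CPM in KO rTreg libraries (3.80-fold lower, SE of the log2 value 0.0745, adjusted p = 3.56e-17). Bcl2l11 (Bim), the main killer protein of unneeded lymphocytes, averaged 58.8 ± 8.62 CPM in KO aTreg and 91.9 ± 6.91 CPM in KO rTreg cells (log2 fold change -0.64). Bcl2a1b and Bcl2a1d, protective members induced by NF-kB, averaged 124 ± 13.5 and 17.0 ± 3.02 CPM in KO aTreg cells, against 49.8 ± 1.78 and 5.80 ± 1.23 CPM in KO rTreg cells. These are near-identical copies and their separate values are uncertain. Higher calls in this list fell to 3 with the percent of reads outside genes or the myeloid sum in the fit, and to 5 with the B cell sum.

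Genes of the migratory cytoskeleton and calcium binding, the S100, annexin and galectin list, had 15 higher and 2 lower of 26 tested (median log2 fold change 0.57). S100a4 read 91.5, 96.4, 68.8 and 73.1 CPM in KO aTreg libraries, against 10.9, 11.8, 10.6 and 13.4 CPM in KO rTreg libraries (7.06-fold, adjusted p = 7.41e-11). S100a11 averaged 252 ± 24.7 CPM in KO aTreg and 62.2 ± 5.67 CPM in KO rTreg cells (4.06-fold), S100a6 299 ± 42.5 CPM in KO aTreg and 70.8 ± 8.62 CPM in KO rTreg cells (4.22-fold). The 3 genes lay apart in all libraries, as did Lmna, which encodes nuclear lamin A (11.6 ± 2.06 CPM in KO aTreg, 3.58 ± 0.560 CPM in KO rTreg). Lower were the galectins Lgals4 (9.35 ± 1.20 CPM in KO aTreg, 14.5 ± 2.47 CPM in KO rTreg) and Lgals9 (374 ± 26.4 CPM in KO aTreg, 449 ± 27.8 CPM in KO rTreg).

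Among metabolic groups, glycolysis had 6 higher (26.1%) and 5 lower (21.7%) of 23 tested (median log2 fold change 0.06), near the 21.7% and 19.9% over all genes. The isoenzymes of enolase moved apart: Eno3, the muscle form, averaged 36.0 ± 0.596 CPM in KO aTreg and 97.1 ± 8.53 CPM in KO rTreg cells (log2 fold change -1.43, adjusted p = 1.71e-14), and Eno2, the neuronal form, 9.94 ± 0.489 CPM in KO aTreg and 6.05 ± 1.09 CPM in KO rTreg cells (0.72). The lactate exporter Slc16a3 was higher (0.95), as was the aldolase Aldoa (0.38), while the lactate dehydrogenase chain Ldhb was lower (-0.32). Gapdh, Eno1, Pgk1 and Pgam1 have near-identical pseudogene copies and their counts, which averaged below 20 CPM in each KO population, are uncertain.

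Cholesterol and fatty acid synthesis had 11 lower and 1 higher of 27 tested (median log2 fold change -0.23). Hmgcs1, an early enzyme of the sterol pathway, averaged 68.4 ± 6.33 CPM in KO aTreg and 108 ± 9.51 CPM in KO rTreg cells (-0.66), Sc5d 131 ± 15.9 CPM in KO aTreg and 182 ± 5.52 CPM in KO rTreg cells (-0.48) and Fdps 23.7 ± 3.11 CPM in KO aTreg and 35.5 ± 4.79 CPM in KO rTreg cells (-0.58). Acly, which makes cytosolic acetyl-CoA, was the higher member (296 ± 17.7 CPM in KO aTreg, 231 ± 12.97 CPM in KO rTreg).

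Oxidative phosphorylation had 8 higher (22.9%) and 5 lower (14.3%) of 35 tested, all under a log2 fold change of 1 in size, against 21.7% and 19.9% over all genes. The catalytic ATP synthase subunits Atp5b (-0.24) and Atp5a1 (-0.25) and the succinate dehydrogenase subunit Sdha (-0.23) were lower, and the cytochrome oxidase subunit Cox6c (0.35) higher. Without KO aTreg replicate 4, 0 members were higher, and the count lay between 2 and 4 without any one of KO aTreg replicates 1 and 2 or KO rTreg replicates 1 to 4. The lower members numbered 3 without KO aTreg replicate 1, KO aTreg replicate 2 or KO rTreg replicate 3. With the percent of reads outside genes, the myeloid sum or the B cell sum in the fit, 0, 0 and 1 members were higher and 8, 1 and 0 lower, and 15 were higher in the 8 KO splenic libraries with the replicate block. The GIMAP GTPases, which support lymphocyte survival, had 3 higher and 3 lower of 8 tested (37.5% each way). Gimap7 averaged 815 ± 25.3 CPM in KO aTreg and 512 ± 40.5 CPM in KO rTreg cells (0.67), Gimap1 421 ± 42.8 CPM in KO aTreg and 323 ± 17.3 CPM in KO rTreg cells (0.38), and Gimap5 was higher by 0.31. Gimap8 (-0.37) and Gimap3 (-0.28) were lower, and 1 member was lower without KO rTreg replicate 3.

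Interferon-stimulated genes were lower in KO aTreg cells for 15 of 34 tested members and higher for 2 (median log2 fold change -0.21). Usp18, which restrains interferon receptor signalling, read 84.1, 109, 98.7 and 158 CPM in KO aTreg libraries, against 209, 282, 207 and 295 CPM in KO rTreg libraries (log2 fold change -1.14, SE 0.149, adjusted p = 5.27e-07). Oasl2 read 5.12, 12.4, 8.14 and 13.7 CPM in KO aTreg libraries, against 18.7, 32.5, 18.2 and 32.6 CPM in KO rTreg libraries (-1.35, adjusted p = 2.33e-05). For both genes replicates 2 and 4 were the higher pair in each population, and the populations did not overlap. Gbp2 read 225, 277, 302 and 323 CPM in KO aTreg libraries, against 446, 500, 454 and 483 CPM in KO rTreg libraries (-0.74), and Ifit2 averaged 71.4 ± 5.83 CPM in KO aTreg and 99.0 ± 11.3 CPM in KO rTreg cells (-0.47). Isg20 (0.40) and Oas1a (0.51) were higher on average, though their libraries overlapped. The sum over the list, 5007 ± 563 CPM in KO aTreg and 5779 ± 633 CPM in KO rTreg cells, also overlapped, though it was lower in KO aTreg cells in all 4 pairs of libraries with the same replicate number. With the myeloid sum in the fit, 6 members were lower, and with the B cell sum 8.

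**Figure D4:**
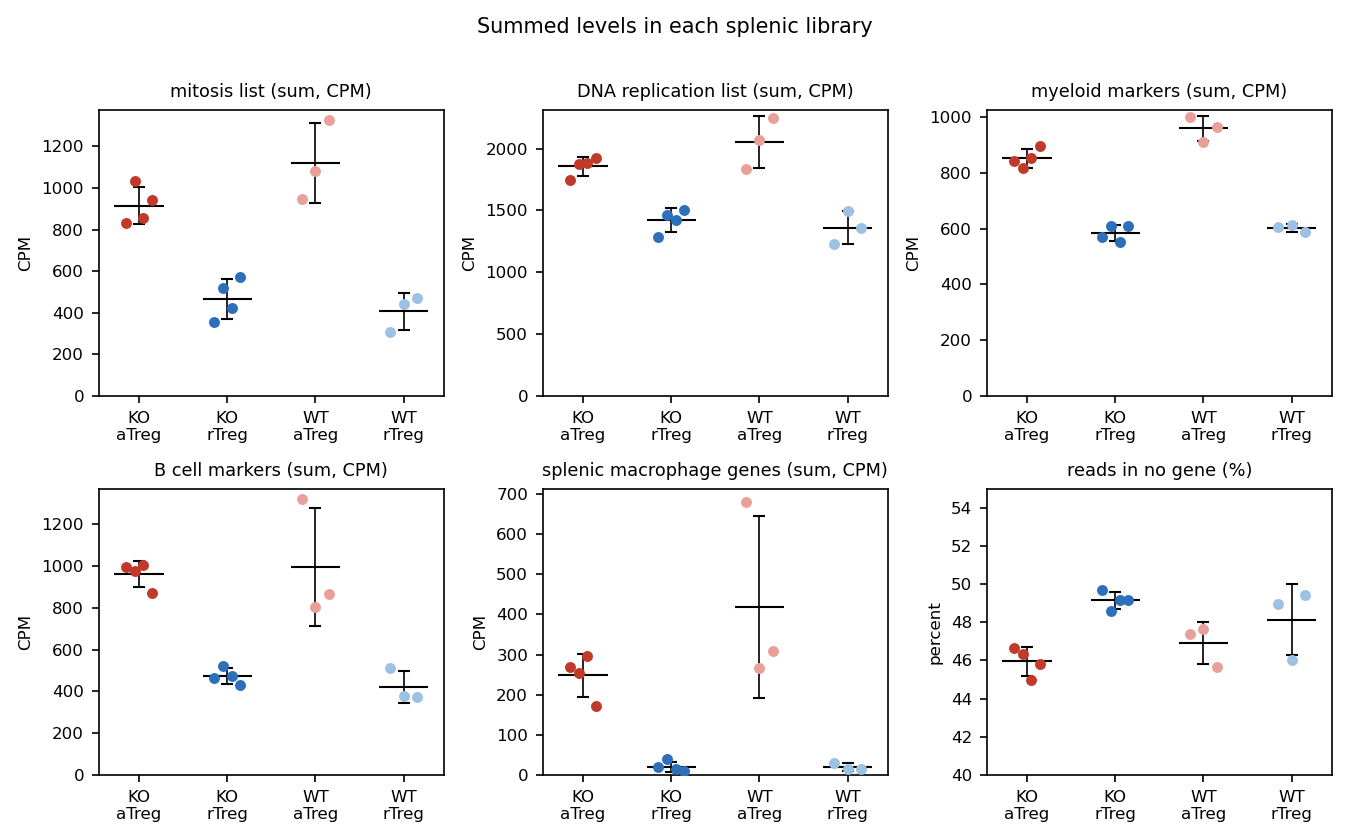
Summed CPM of gene and marker lists in each splenic library on axes from 0, and the percent of reads in no gene on an axis from 40, with 1 point per library and bars for mean and SD (n = 4 in KO, 3 in WT). Mitosis, B cell, myeloid and splenic macrophage sums lie higher in all 4 KO aTreg than in all 4 KO rTreg libraries, and the percent of reads in no gene lies lower.

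The contrast in WT mice was set beside the KO contrast to ask whether the aTreg and rTreg populations differ otherwise when CNS3 is intact. In WT, 5060 of 13338 genes passed (37.9%), of which 2650 were higher in WT aTreg cells (19.9%) and 2410 lower (18.1%). Beyond a log2 fold change of 1 in size, 1364 were higher (10.2%) and 436 lower (3.27%). Called in both genotypes were 4083 genes, 73.5% of the KO calls and 80.7% of the WT calls, and 4082 of these had the same direction. The fold changes of the genotypes correlated across the 13338 genes (Pearson r 0.849, Spearman rank correlation 0.830, a description across genes, which are not independent). The test of the difference itself called 0 genes with edgeR's quasi-likelihood test, with a smallest adjusted p of 0.581. At an unadjusted p under 0.05 stood 617 genes (4.63%), and DESeq2 called 1, Ccr8. For 3324 of the 5555 KO calls the 95% interval of the difference lay within 1.5-fold.

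Ccr8 had the smallest p of the difference. Its log2 fold change was 2.11 in KO and 2.82 in WT, a difference of -0.71 (95% interval -1.01 to -0.41), and its adjusted p in edgeR's quasi-likelihood test was 0.581. It passed in DESeq2 (adjusted p = 0.0167), with the replicate block (0.00655) and without KO rTreg replicate 1 (0.0120), and over all fits the adjusted p ran from 0.00655 to 0.99999. The others named by the rule did not pass either. Ctsz, a lysosomal protease, rose less in KO (0.53) than in WT (0.87), a difference of -0.35 (unadjusted p = 2.33e-04). Phf1, a Polycomb-associated protein, was the 1 gene called in opposite directions, higher in KO aTreg cells (0.23, adjusted p = 0.0461) and lower in WT aTreg cells (-0.36, adjusted p = 0.00967), with a difference of 0.59 (unadjusted p = 2.96e-04). Its KO libraries overlapped, at 25.7, 24.8, 21.4 and 22.5 CPM in KO aTreg and 20.7, 18.1, 19.6 and 21.9 CPM in KO rTreg cells, and its KO call was lost in 5 of the 8 fits that left out 1 KO library (KO aTreg replicates 1 and 2 and KO rTreg replicates 1, 2 and 3, with adjusted p from 0.0613 to 0.143). Trim8 (difference 0.43), Cdca7l (-0.36) and Celsr1 (0.66) had unadjusted p-values of 5.07e-04, 7.28e-04 and 7.67e-04.

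**Figure D5:**
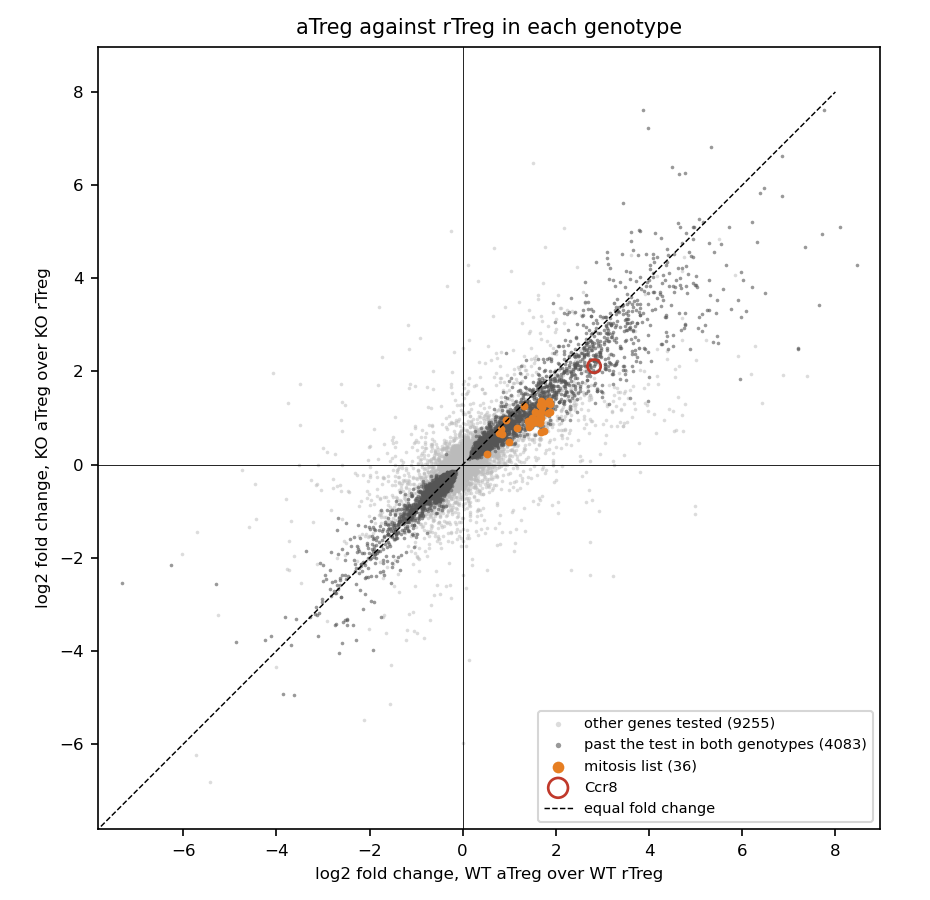
Log2 fold change of aTreg over rTreg in KO mice (vertical) and in WT mice (horizontal) for 13338 genes, with the line of equality. Dark points mark the 4083 genes called in both genotypes, of which 4082 share their direction, orange points the 36 mitosis genes, and Ccr8 lies at 2.11 in KO and 2.82 in WT.

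Lists were read side by side in the genotypes. Mitosis genes had a median log2 fold change of 0.98 in KO and 1.598 in WT, with 34 and 36 of 36 higher. Their difference was below 0 for 35 of 36 members and had an unadjusted p under 0.05 for 9, of which 0 passed adjustment over all genes. The mitosis genes summed to 916 ± 90.4 CPM in KO aTreg and 467 ± 95.9 CPM in KO rTreg cells (n = 4 each), and to 1118 ± 192 CPM in WT aTreg and 408 ± 88.8 CPM in WT rTreg cells (n = 3 each). The replication list had medians of 0.49 in KO and 0.74 in WT. Suppressive molecules (2.41 in KO, 2.67 in WT), effector factors (1.44 in KO, 1.64 in WT), quiescence factors (-0.53 in KO, -0.69 in WT) and tissue receptors (1.62 in KO, 2.16 in WT) had medians of larger size in WT. Helper cytokines (2.42 in KO, 1.92 in WT) and the follicular genes (1.99 in KO, 1.77 in WT) had larger medians in KO. Gene by gene, however, the difference was below 0 for 10 of 13 helper cytokines, with a median of -0.29, and for 5 of 10 follicular genes. Over all genes 50.3% had a difference below 0, a share that mixes genes that rise with genes that fall. Across the 4083 genes called in both genotypes, the regression slope of KO on WT log2 fold changes was 0.85. A smaller change in KO was therefore not shown to be particular to the lists above. Members of a list are not independent of each other. Bcl2 fell by 1.93 in KO and 1.94 in WT, a difference of 0.01 (95% interval -0.21 to 0.24), and Foxp3 differed by -0.06 (-0.31 to 0.19). The macrophage gene sum was 248 ± 53.8 CPM in KO aTreg and 419 ± 227 CPM in WT aTreg cells, with 20.9 ± 12.7 CPM in KO rTreg and 19.8 ± 9.42 CPM in WT rTreg cells. The WT aTreg mean was raised by replicate 1, as those libraries read 680, 266 and 310 CPM.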

How the data were processed

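RNA of sorted mouse T cells was extracted with TRIzol, amplified with SMART chemistry and sequenced as paired ends on a HiSeq 2000, per the labels' protocols. The authors deposited raw counts per gene symbol, and the submitters' processing notes name Trimmomatic, STAR, HTSeq and the mm10 genome. Neither labels nor headers state versions, the gene annotation or the strand setting, so reads of overlapping antisense genes cannot be told apart. The deposited counts list 23420 symbols, of which 3712 were at 0 in all libraries. Rows that name no gene stayed out of library sizes and tests. They held 45.0 to 49.7% of reads in no gene in the KO splenic libraries, with 24.8 to 26.5% mapping to several places and 0.633 to 0.709% ambiguous. No 2 KO splenic libraries of a group agreed within sampling noise (chi-square per degree of freedom 7.51 to 14.6). Genes in all 28 libraries (22037995 to 40754492 counts) were fitted with edgeR 4.0.16 in R 4.3.3, with TMM factors, its expression filter, 1 mean per group and the quasi-likelihood test with Benjamini-Hochberg adjustment over 13338 genes at 0.05. The fit had 20 residual degrees of freedom. The method was tested on simulated counts. The design text speaks of RNA and libraries prepared in parallel, and no other batch is given.

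Some items that the rule names are not reported here. Named genes were Foxp3, Cd44, Ccr7, Itgae and Klrg1, and the 10 largest rises and falls among called genes of at least 8 CPM whose 4 libraries did not overlap. The 5 smallest p in each direction were taken under the same filters. Also named were up to 4 called members per list by p and 2 against its direction, and the 6 smallest p of the KO minus WT difference. Predicted genes, small RNAs and receptor segments were left out. Other names (Ctla4, Il2ra, Il2rb, Lrrc32, Ikzf4, Gzmb, Nr4a1, Foxo3, Slfn2, Mcm2, Mcm4, Mcm7, unmoved glycolytic genes, markers, and the follicular and macrophage lists) were chosen after their values were seen. Members and lists were chosen with earlier results of these data known. Marker sums were compared by exact permutation tests that ignored the replicate numbers. Replicate numbers in the titles were taken to pair KO populations, since same-numbered aTreg and rTreg libraries deviated together (correlations 0.369, 0.274, 0.203 and 0.308, all over 0.1). In WT the same-numbered correlations were 0.345, 0.0751 and 0.139, so not all exceeded 0.1. WT aTreg replicate 3 and WT rTreg replicate 2 gave 0.112. The block over 28 libraries pairs WT libraries by number too, so the Ccr8 difference with the block rests on that weaker pairing. Promoter sequences are RefSeq's, and gene positions are on GRCm38. Alternatives were RLE scaling, other filters, DESeq2 1.42.0, limma 3.58.1 voom, fewer libraries, the replicate block, leaving out each library, and 3 covariates added after seeing the data.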

Additional observations from a re-analysis of the deposited data

Results flagged for a closer look

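In 10 of 284 groups of 4 libraries tested, 1 library stood apart from the other 3 by Dixon's criterion, which chance alone meets in about 1 of 20 groups. In KO aTreg cells, Bcl2l11 was low in replicate 1 (45.9 CPM, others 61.8 to 64.0), Gimap7 was low in replicate 3 (777 CPM, others 823 to 831), Selplg was high in replicate 3 (643 CPM, others 579 to 588) and Stat5a was high in replicate 4 (73.0 CPM, others 66.8 to 67.5). In KO rTreg cells, Bach2 was low in replicate 2 (102 CPM, others 107 to 108), Cst7 was low in replicate 3 (43.7 CPM, others 56.8 to 58.2) and Itgb3 was low in replicate 4 (58.9 CPM, others 68.8 to 70.7). Ky (0.757 CPM, others 0.159 to 0.218), Nckap5 (0.398 CPM, others 0.0636 to 0.0942) and the dendritic cell marker sum (338 CPM, others 279 to 288) were high in KO rTreg replicate 2. All 9 genes kept their call without the library that stood apart.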

How the results depend on the processing

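The KO contrast kept its count of 5555 within 1.5 times under RLE scaling (5518), no filter (5266), a minimum of 8 CPM (4333), DESeq2 (5690), voom (5551), the 14 splenic libraries (5747) and the 8 KO libraries (6123), and gave 4745 to 5170 calls leaving out 1 library. With the replicate block it gave 5925 calls over 28 libraries and 6799 over the 8 KO libraries, and the block left the KO call of each gene named by the rule as it was. With the myeloid sum added after seeing the data, KO calls were 2841 (1523 higher, 1318 lower) and WT calls 2452 (1310 higher, 1142 lower). With the B cell sum they were 3516 in KO (1862 higher, 1654 lower) and 2925 in WT (1599 higher, 1326 lower); the cause was not tested. The test of the KO minus WT difference called 1 gene, lower, with DESeq2 and 1, lower, with the replicate block, and 0 to 1 leaving out 1 library. No called value of a named gene changed sign under any alternative run, and among all genes 3293 of the 3296 KO calls kept with the B cell sum had the same direction. Cox6c without KO aTreg replicate 4 and Gimap3 without KO rTreg replicate 3 missed the threshold (adjusted p = 0.0504 each).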

Other observations

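Transcripts known from splenic macrophages also separated the KO populations. C1qa, a complement chain of macrophages, read 7.43, 7.36, 7.47 and 5.03 CPM in KO aTreg libraries, against 0.377, 0.717, 0.109 and 0.0636 CPM in KO rTreg libraries. The 12 genes of the macrophage list, chosen after values were seen, rose by 3.17 to 4.46 on the log2 scale. WT aTreg libraries held 419 ± 227 CPM of them, against 19.8 ± 9.42 CPM in WT rTreg libraries (n = 3 each). Replicate 1 was the high WT aTreg library (680 CPM, others 266 and 310 CPM).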
